A study of Mus musculus with 2 samples.

Results

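The genes described here encode the solute carriers of the mitochondrial inner membrane (Slc25a) and the translocases that bring proteins into mitochondria across the outer membrane (Tomm) and the inner membrane (Timm). They were taken by name: every probe set that carried 1 gene symbol beginning with Slc25a, Timm or Tomm followed by a digit was included, and where a gene had several, the brightest by mean log2 signal over both arrays stands for it. This gave 67 genes with 142 probe sets, of 18193 genes in all: 44 carriers, 15 Timm genes and 8 Tomm genes. All 67 were found by Entrez identifier in the mouse RefSeq gene table, with the same symbol.

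Expression was measured on 1 Affymetrix array of osteoclasts and 1 of macrophages, both grown from bone marrow of C57/Black6 mice aged 8 weeks. Marrow cells were kept for 3 days with M-CSF, the growth factor of the macrophage lineage, and those that adhered served as the progenitors of both cell types. The osteoclast culture then received M-CSF together with RANKL, the signal for osteoclast differentiation, and the macrophage culture received M-CSF alone, each for 6 days. The labels name no genetic change in either group, both groups had M-CSF throughout, and the labels give neither the number of animals nor whether both cultures came from the same ones.

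Mitochondria make few of their own proteins, and nearly all the others are imported after synthesis in the cytosol. Precursors are recognised by the TOM complex and pass through its channel. Small TIM chaperones carry membrane proteins across the intermembrane space to TIM22, while precursors with a presequence go through TIM23 and are pulled into the matrix by a chaperone motor. The carriers, themselves cargo of TIM22, exchange ADP for ATP, phosphate, organic acids, amino acids, cofactors and iron across the inner membrane. Osteoclasts are known to be rich in mitochondria.

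The labelled cell types were checked against their markers. All 10 osteoclast markers were higher in the osteoclast array, with summed signals of 36790 in osteoclasts and 1013 in macrophages. The 7 macrophage markers summed to 14969 in osteoclasts and 30259 in macrophages, and 4 of them were at least 2-fold lower in osteoclasts. All 8 granulocyte markers were higher in the osteoclast array, with summed signals of 6057 in osteoclasts and 3227 in macrophages, and their part in the results was not tested. The 5 stromal markers summed to 4777 in osteoclasts and 8393 in macrophages, but Dcn and Pdgfrb were brighter in osteoclasts. Their medians were 335 in osteoclasts and 307 in macrophages. The 4 megakaryocyte markers summed to 1789 in osteoclasts and 8612 in macrophages, mostly from Pf4 (1609 in osteoclasts and 8488 in macrophages). Gp9 was measured in macrophages only, and Vwf in osteoclasts only (95.5 in osteoclasts and 13.9 in macrophages). The deposited signals of Itga2b were about level (79.8 in osteoclasts and 74.6 in macrophages). The part of these 2 lists was not tested either. The other lists summed to little: B cell markers to 49.5 in osteoclasts and 119 in macrophages, T and NK cell markers to 43.9 in osteoclasts and 76.5 in macrophages, erythroid markers to 29.5 in osteoclasts and 33.4 in macrophages, and fat markers, mostly Pparg, to 100.5 in osteoclasts and 265 in macrophages. Cd79a, Cd3e and Ucp1 were below the floor in both arrays, while Cd79b (16.4 in osteoclasts and 64.7 in macrophages), Cd8a (23.2 in osteoclasts and 48.7 in macrophages) and Pparg (80.6 in osteoclasts and 244 in macrophages) were measured in both. Xist, the RNA of the inactive X chromosome, had a signal of 22.1 in osteoclasts and 1872 in macrophages. The Y-linked genes Eif2s3y (321 in osteoclasts and 0.571 in macrophages), Kdm5d (63.5 in osteoclasts and 6.14 in macrophages) and Uty (72.7 in osteoclasts and 14.7 in macrophages) went the other way. These are signals of male cells in the osteoclast array and of female cells in the macrophage array. The treatment and the animals behind each array therefore cannot be told apart. In such bulk cultures, fewer cells of a type and less RNA per cell cannot be told apart either.

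The typical probe set was dimmer in the osteoclast array. The median log2 difference, osteoclasts minus macrophages, over the 23708 probe sets above the floor in both arrays was -0.43, which is a 1.35-fold lower signal. Differences below are on the log2 scale and relative to this shift, so that 0 stands for the typical probe set, and values as deposited are named as such. The floor was the 40th percentile of all probe sets of an array, 14.4 in osteoclasts and 17.04 in macrophages, and a gene above it is called measured. A signal under the level that 95% of the probe sets for olfactory and vomeronasal receptors stay below, 25.8 in osteoclasts and 28.3 in macrophages, is said to lie in the range of background, and a difference from such a signal is not an exact value. Neither group has a replicate, so there is no test, and the one error that can be had is how far probe sets of 1 gene differ from each other. The SD of this was 0.49 over 14641 probe sets of 5435 genes, and it holds no variation between cultures or animals. Genes were counted by size, past this SD and past 2-fold.

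Of the 67 genes, 59 were measured in both arrays, 1 in osteoclasts only, 2 in macrophages only and 5 in neither. Of all 18193 genes, 11469 were measured in both, 986 in osteoclasts only, 1192 in macrophages only and 4546 in neither. Of the 21 import genes measured in both, 19 were above the shift, 11 of them by more than the SD, and 2 were below it, a difference from the carriers that was not tested. The 14 measured Timm genes had a median of 0.59 (0.16 as deposited) and ran from -0.09 to 0.94. The 7 measured Tomm genes had a median of 0.30 and ran from -0.37 to 0.63, but their median was -0.14 as deposited, so their direction turned with the scaling. The 38 measured carriers had a median of -0.0015 (-0.43 as deposited) and ran from -1.22 to 1.41, with 19 on each side of the shift. For all 11469 genes measured in both arrays the median was -0.017 (-0.45 as deposited).

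Above the shift by more than the SD lay 9 of 14 Timm genes, 2 of 7 Tomm genes and 4 of 38 carriers, against 19.2% of all genes. Below it by more than the SD lay 7 carriers and no import gene, against 20.5% of all genes. Differences of 2-fold were few. One carrier, Slc25a42, was at least 2-fold higher and one, Slc25a47, at least 2-fold lower in osteoclasts, against 6.25% and 7.03% of all genes in those directions. As deposited, none of the 59 was 2-fold higher (2.53% of all genes) and 6 carriers were 2-fold lower (17.7% of all genes).

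**Figure D1:**
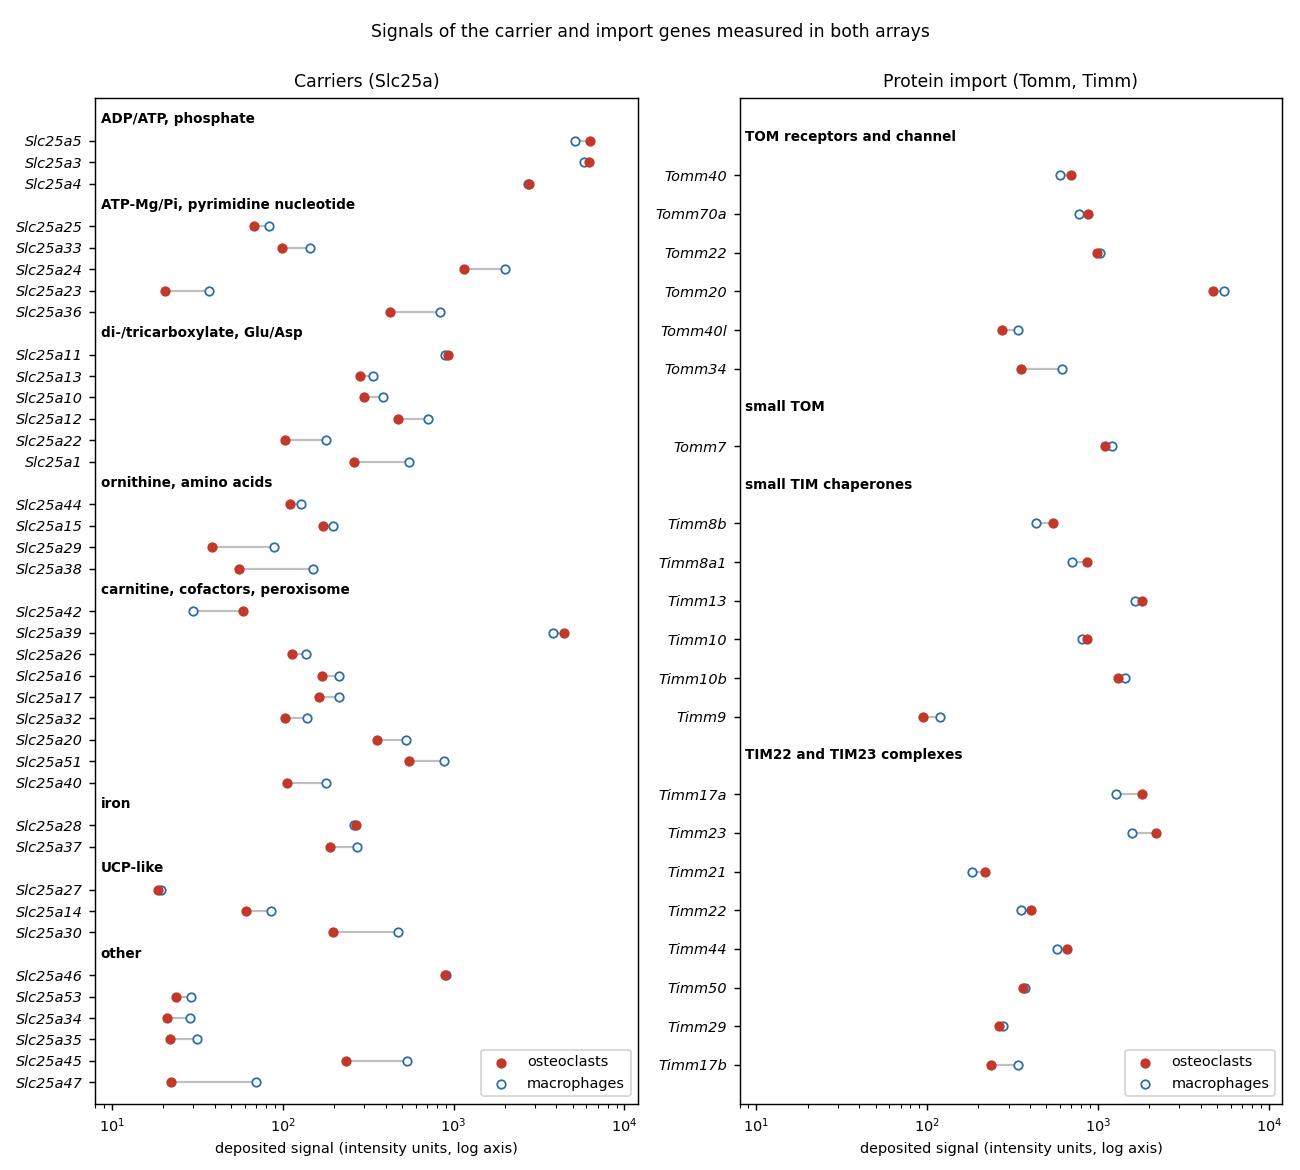
Deposited signals of the 59 carrier and import genes measured in both arrays, on a log axis in intensity units; filled red points are the osteoclast array, open blue points the macrophage array, and a grey line joins the 2 values of a gene. As deposited, 7 of 38 carriers (18.4%) lie higher in osteoclasts, near the 21.6% of all genes. Most Timm genes and the ADP/ATP and phosphate carriers lie level or higher. Distances between genes on this axis compare probe sets and are not expression ratios.

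At the outer membrane, the channel and one receptor were above the shift and the others near it. Tomm40, the channel of the TOM complex, had a signal of 694 in osteoclasts and 604 in macrophages (0.63). Tomm70a, the receptor for carrier precursors, had 880 in osteoclasts and 778 in macrophages (0.61), and its 4 measured probe sets ran from 0.11 to 0.90. Both exceeded the SD between probe sets.

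Tomm22, the central receptor, had 984 in osteoclasts and 1027 in macrophages (0.37). Tomm20, the receptor for presequences, had 4692 in osteoclasts and 5476 in macrophages (0.21), and its 6 measured probe sets lay on both sides of the shift, between -0.29 and 0.71. Tomm7, a small subunit of the complex, had 1102 in osteoclasts and 1210 in macrophages (0.30). These 3 differences are within the SD, and all 3 genes were slightly dimmer in osteoclasts as deposited.

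Tomm40l, a relative of the channel, gave 276 in osteoclasts and 339 in macrophages (0.14), and its other probe set gave -0.39. Tomm34, a cytosolic cochaperone of import, was the 1 Tomm gene below the shift, with 354 in osteoclasts and 618 in macrophages (-0.37). Tomm20l was measured in macrophages only, at 21.5 against 2.60 in osteoclasts, and both values lie in the range of background. Tomm5 and Tomm6 share their probe sets with other symbols and are not analysed here.

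Among the small TIM chaperones of the intermembrane space, all 6 measured genes were above the shift, 4 of them by more than the SD. Timm8b had 547 in osteoclasts and 433 in macrophages (0.77), and Timm8a1, the mouse counterpart of the human deafness-dystonia gene, had 860 in osteoclasts and 704 in macrophages (0.72, its other probe set 0.81). Their partner Timm13 had 1806 in osteoclasts and 1648 in macrophages (0.56). The Timm8 and Timm13 chaperones thus lay close together, between 0.56 and 0.77.

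Timm10 had 868 in osteoclasts and 805 in macrophages (0.54), while Timm9, with which it forms a ring, had 94.8 in osteoclasts and 120 in macrophages (0.10), and the second probe set of Timm9, with 26.7 in osteoclasts and 18.1 in macrophages, was in the range of background in macrophages. Timm10b, which sits with them on TIM22, had 1309 in osteoclasts and 1434 in macrophages (0.30, with probe sets from -0.025 to 0.30). Timm8a2 was measured in osteoclasts only, at 16.4 against 0.501 in macrophages, in the range of background, so no fold is given.

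The inner membrane translocases held the highest import values. Timm17a, a core subunit of TIM23, had 1805 in osteoclasts and 1273 in macrophages (0.94, 0.50 as deposited). Timm23, the channel-forming subunit, had 2178 in osteoclasts and 1593 in macrophages (0.88, 0.45 as deposited). Both were higher in osteoclasts on either scale, and each rests on 1 probe set.

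Timm17b, the second form of Timm17, went the other way as deposited and stayed near the shift, with 238 in osteoclasts and 342 in macrophages (-0.09, its other probe set -0.37). The TIM23 partners Timm21 (217 in osteoclasts and 183 in macrophages, 0.68) and Timm44, which tethers the import motor (657 in osteoclasts and 575 in macrophages, 0.62), exceeded the SD. All 3 probe sets of Timm44 were between 0.62 and 0.88. Timm50, the TIM23 receptor, gave 362 in osteoclasts and 376 in macrophages (0.38), within the SD.

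Timm22, the carrier translocase itself, had 405 in osteoclasts and 354 in macrophages (0.63), but its other probe set, with 19.3 in osteoclasts and 41.5 in macrophages, was in the range of background in osteoclasts. The value of Timm22 thus rests on 1 probe set. Timm29, known in human cells as a TIM22 subunit, had 265 in osteoclasts and 278 in macrophages (0.36, its other probe set 0.44). Of the 13 import genes with several measured probe sets, 8 had all of them above the shift, 1 had all of them below it and 4 had them on both sides. The same count was not made over all genes, so it shows no trait of the import genes.

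**Figure D2:**
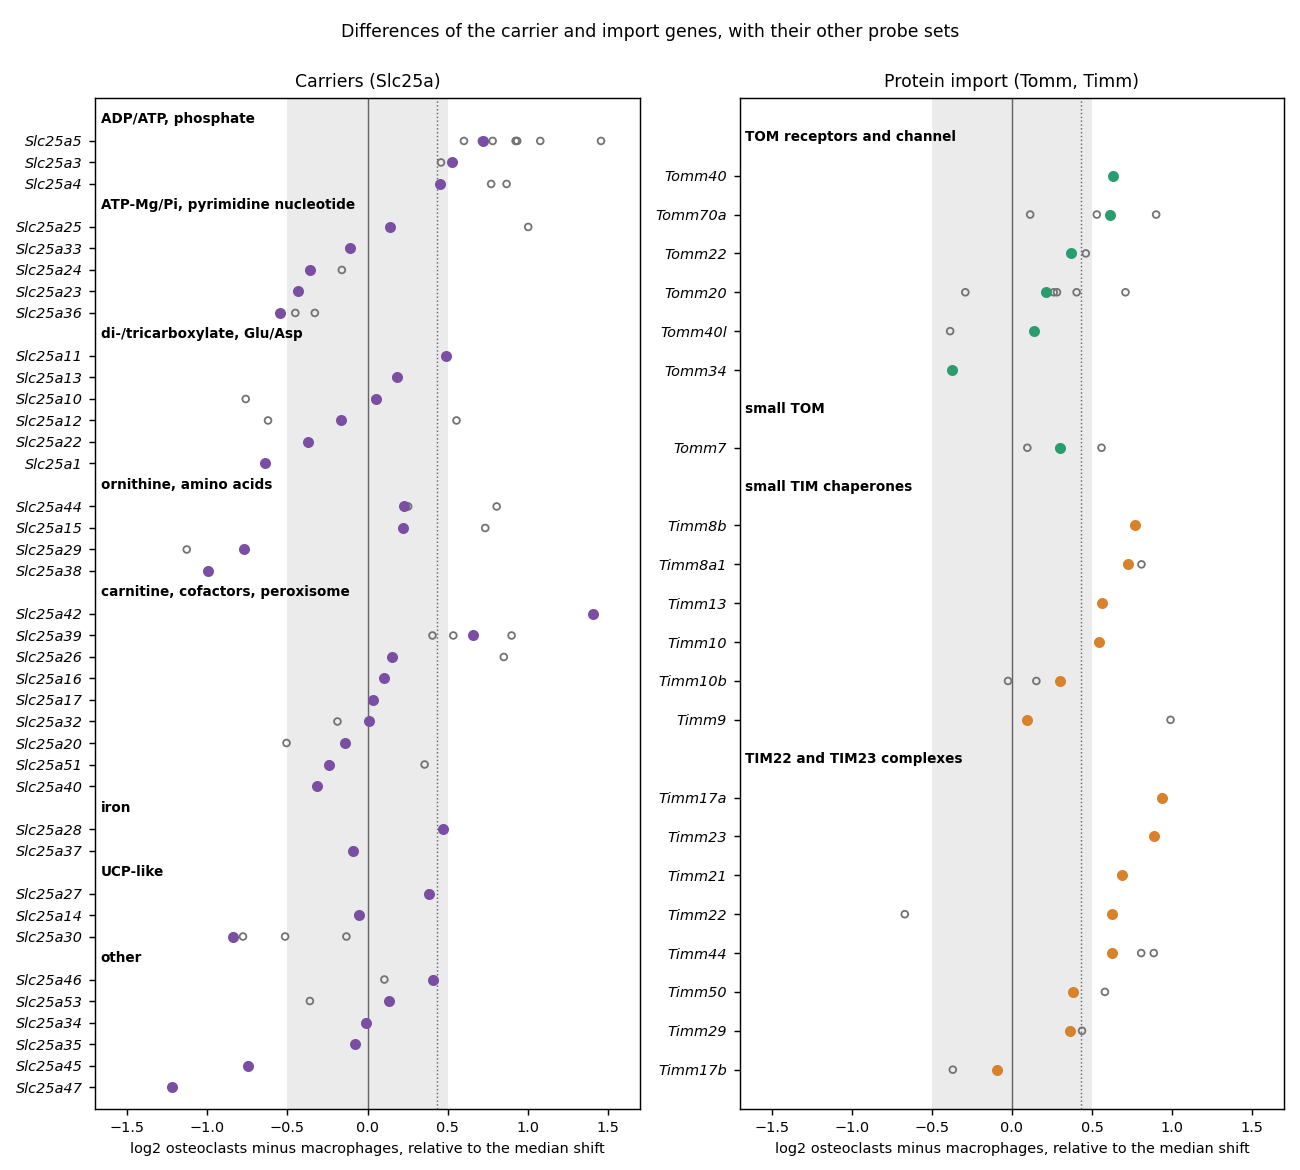
Log2 differences, osteoclasts minus macrophages relative to the median shift, of the 59 genes measured in both arrays; filled points are the probe set used for a gene, open circles its other measured probe sets, the grey band is ±1 SD between probe sets of a gene (0.49), the solid line is the shift and the dotted line is no difference as deposited. The Timm genes lie mostly to the right of the band or at its edge, Slc25a42 lies farthest right and Slc25a47 farthest left.

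The genes around this machinery, from a list of 34 of which 29 could be read, had a median of 0.48 over 28 measured (0.050 as deposited), with 14 above the shift by more than the SD and 1 below it. All 7 genes of the import motor and matrix chaperones were above the SD and also higher in osteoclasts as deposited, between 0.58 and 0.88 relative to the shift. Hspa9, the mitochondrial Hsp70 that drives import, had 2127 in osteoclasts and 1925 in macrophages (0.58), although its 5 probe sets ran from -0.62 to 1.33. Dnajc15, a J-protein of the motor, had 1317 in osteoclasts and 968 in macrophages (0.88).

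The presequence peptidase subunits differed from each other. Pmpcb, the catalytic one, had 827 in osteoclasts and 642 in macrophages (0.80, its other probe set 0.87). Pmpca had 561 in osteoclasts and 799 in macrophages (-0.077, its other probe set 0.25). Mtx2 of the outer membrane sorting machinery was the 1 gene of 28 measured past 2-fold above the shift, against 6.25% of all genes. It had 762 in osteoclasts and 509 in macrophages (1.02, 0.58 as deposited). This value is close to the threshold and rests on 1 probe set of the _s_at kind. The outer membrane pore gene Vdac1 gave 3760 in osteoclasts and 2716 in macrophages (0.90), while Vdac3 gave 1758 in osteoclasts and 2285 in macrophages (0.055).

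Among the carriers, those of ADP, ATP and phosphate stood on the side of the import genes. Slc25a5, the ADP/ATP carrier of most tissues, had 6313 in osteoclasts and 5165 in macrophages (0.72), and all 8 of its probe sets were above the shift, between 0.60 and 1.46. Slc25a4, the ADP/ATP carrier of heart and muscle, had 2773 in osteoclasts and 2735 in macrophages (0.45, within the SD). Its 3 measured probe sets were between 0.45 and 0.87. Slc25a3, the phosphate carrier, had 6185 in osteoclasts and 5795 in macrophages (0.53, its other probe set 0.46).

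All 3 were brighter in osteoclasts as deposited too, by 0.29, 0.020 and 0.094, although Slc25a4 was thus about level. Many of the Slc25a5 probe sets are of the _x_at kind, which can bind transcripts of near-identical sequence, so its split from related copies is uncertain. Without _x_at and _s_at probe sets Slc25a5 gave 0.92. Slc25a31, the testis form, was below the floor in both arrays.

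The nucleotide carriers of the ATP-Mg/phosphate kind, which change the size of the matrix nucleotide pool, and those of pyrimidine nucleotides were not part of this. Slc25a24 had 1155 in osteoclasts and 2004 in macrophages (-0.36, its other probe set -0.16). Slc25a36, a pyrimidine nucleotide carrier, had 425 in osteoclasts and 839 in macrophages (-0.55), and all 3 of its probe sets were below the shift. The other 3 measured genes of this group, Slc25a23 (-0.44), Slc25a33 (-0.11) and Slc25a25 (0.14), were within the SD in the probe set used. The osteoclast signal of Slc25a23, 20.4, and the macrophage signal of the other probe set of Slc25a25, 20.9, lie in the range of background. That other probe set gave 1.00, and the median of both put Slc25a25 at 0.57, past the SD. Slc25a41 was below the floor in both arrays.

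Carriers of organic acids and of glutamate and aspartate spread to both sides. Slc25a1, the citrate carrier that supplies the cytosol with acetyl units, had 263 in osteoclasts and 553 in macrophages (-0.64), the 1 gene of this group past the SD. Slc25a11, the oxoglutarate carrier of the malate-aspartate shuttle, had 927 in osteoclasts and 892 in macrophages (0.49), at the edge of the SD. The aspartate/glutamate carriers of the same shuttle lay nearer the shift, Slc25a12 with 471 in osteoclasts and 713 in macrophages (-0.17, with probe sets from -0.62 to 0.55, the lowest in the range of background in osteoclasts) and Slc25a13 with 283 in osteoclasts and 337 in macrophages (0.18).

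Slc25a10, the dicarboxylate carrier, gave 298 in osteoclasts and 388 in macrophages (0.05), and its other probe set gave -0.76. Slc25a22, a glutamate carrier, gave 103 in osteoclasts and 180 in macrophages (-0.37). Slc25a18, the other glutamate carrier, was measured in macrophages only, at 23.4 against 1.03 in osteoclasts, in the range of background.

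Among the amino acid carriers 2 genes were far below the shift and 2 were above it. Slc25a38, the glycine carrier needed for haem synthesis, had 55.8 in osteoclasts and 150 in macrophages (-0.997, just short of 2-fold relative to the shift). Slc25a29, a carrier of basic amino acids, had 38.5 in osteoclasts and 88.8 in macrophages (-0.77, its other probe set measured in both arrays -1.13). Another probe set of Slc25a29 was measured in osteoclasts only, at 25.2 against 3.71 in macrophages, in the range of background. Slc25a38 and Slc25a29 were both past the SD and at least 2-fold lower in osteoclasts as deposited.

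The ornithine carrier Slc25a15 had 171 in osteoclasts and 198 in macrophages (0.22, its other probe set 0.73), and Slc25a44, linked to branched-chain amino acids, had 111 in osteoclasts and 128 in macrophages (0.23, with probe sets up to 0.81). Slc25a2, another ornithine carrier, was below the floor in both arrays.

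Cofactor carriers included the 1 gene that was 2-fold higher. Slc25a42, the coenzyme A carrier, had 58.5 in osteoclasts and 29.8 in macrophages (1.41, 0.97 as deposited). Both signals are dim, and its second probe set, with 19.01 in osteoclasts and 15.9 in macrophages, was below the floor in macrophages and in the range of background in osteoclasts, so it measures no difference. The 2-fold call of Slc25a42 thus rests on 1 probe set.

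Slc25a39, the glutathione carrier, had 4450 in osteoclasts and 3807 in macrophages (0.66), and its 4 measured probe sets were between 0.40 and 0.90. Its relative Slc25a40 had 107 in osteoclasts and 179 in macrophages (-0.31). Slc25a51, the NAD carrier, had 548 in osteoclasts and 874 in macrophages (-0.24, its other probe set measured in both arrays 0.36). Another probe set of Slc25a51, with 11.6 in osteoclasts and 48.4 in macrophages, was measured in macrophages only. Slc25a20, which carries acylcarnitines to fatty acid oxidation, had 356 in osteoclasts and 528 in macrophages (-0.14, its other probe set -0.51). The remaining 4 of the group, Slc25a16, the peroxisomal carrier Slc25a17, the S-adenosylmethionine carrier Slc25a26 and the folate carrier Slc25a32, lay between 0.01 and 0.15, although the other probe set of Slc25a26 gave 0.85.

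The iron carriers of haem and iron-sulphur cluster synthesis, the mitoferrins, were within the SD. Slc25a28 had 269 in osteoclasts and 262 in macrophages (0.47), and Slc25a37 had 190 in osteoclasts and 273 in macrophages (-0.09). Among the relatives of uncoupling proteins, Slc25a30 had 197 in osteoclasts and 476 in macrophages (-0.84), and its 4 measured probe sets were all below the shift, up to -0.13. Slc25a14 (61.0 in osteoclasts and 85.6 in macrophages, -0.06) and Slc25a27 (18.6 in osteoclasts and 19.3 in macrophages) gave no difference past the SD, and the signals of Slc25a27 lie in the range of background in both arrays.

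Of the remaining carriers, Slc25a47 had 22.1 in osteoclasts and 69.7 in macrophages (-1.22). The osteoclast value lies in the range of background. Raised to that background level, 25.8, the gene was at least 2.70-fold lower in osteoclasts as deposited, which is at the threshold of 2-fold when taken against the shift. It rests on 1 probe set of the _s_at kind, which can bind several transcripts.

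Slc25a45 had 235 in osteoclasts and 531 in macrophages (-0.75), past the SD. Slc25a46, an outer membrane protein of mitochondrial fission, had 894 in osteoclasts and 909 in macrophages (0.41). Slc25a34 (-0.01), Slc25a35 (-0.08) and Slc25a53 (0.13) were dim and near the shift, and Slc25a48 and Slc25a54 were below the floor in both arrays. Of the 19 carriers with several measured probe sets, 9 had all of them above the shift, 5 all below and 5 on both sides. Here too the share over all genes was not counted.

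Other mitochondrial genes were read in the same way. The 76 measured Mrpl and Mrps genes had a median of 0.60, with 73 above the shift, and the 43 measured Nduf genes of complex I had a median of 0.84, with 41 above it. Of the import genes 19 of 21 were above the shift, against 19 of 38 carriers and 48.8% of all genes. The 171 measured Slc genes of other families had a median of -0.09 and a wider spread, from -2.70 to 4.87, than the mitochondrial carriers. These differences between sets were not tested.

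**Figure D3:**
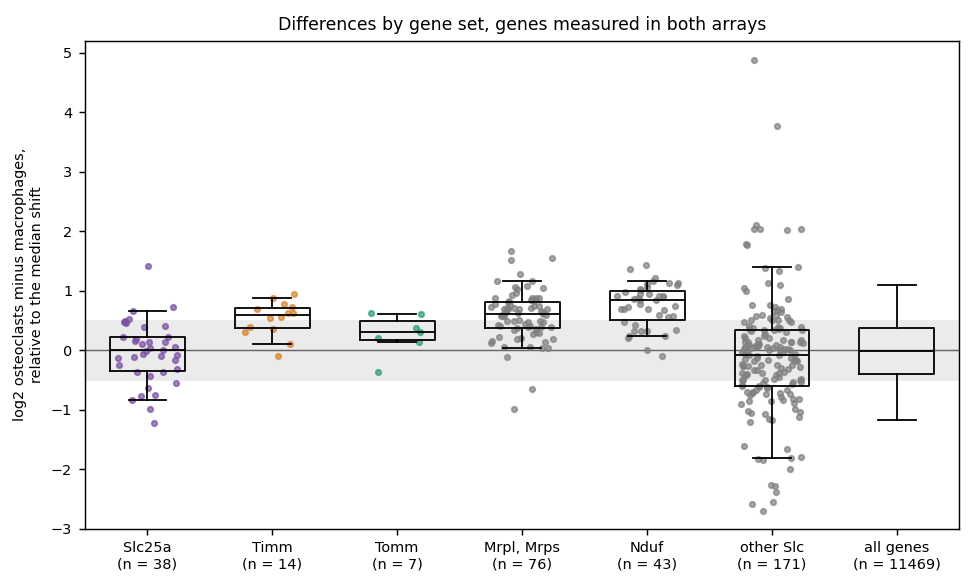
Log2 differences, osteoclasts minus macrophages relative to the median shift, by gene set; each point is a gene measured in both arrays (points are not drawn for all genes), boxes span the quartiles with the median as a line, whiskers run to the 5th and 95th percentiles, and the grey band is ±1 SD between probe sets of a gene. The medians are -0.0015 for Slc25a, 0.59 for Timm, 0.30 for Tomm, 0.60 for Mrpl and Mrps, 0.84 for Nduf, -0.09 for other Slc genes and -0.017 for all genes.

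Signal strength moved little with the difference over all genes. When the 11469 genes were split by mean signal into 5 classes of equal size, the median difference stayed between -0.069 and 0.086. In the brightest class, where all genes had a median of 0.025, the 7 Timm genes had a median of 0.62, the 5 Tomm genes 0.37 and the 8 carriers 0.47. In the next class, where all genes had -0.036, the 4 Timm genes had 0.50, the 2 Tomm genes -0.12 and the 8 carriers -0.36. The carriers above the shift by more than the SD were in the brightest class, except Slc25a42 in the dimmest.

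**Figure D4:**
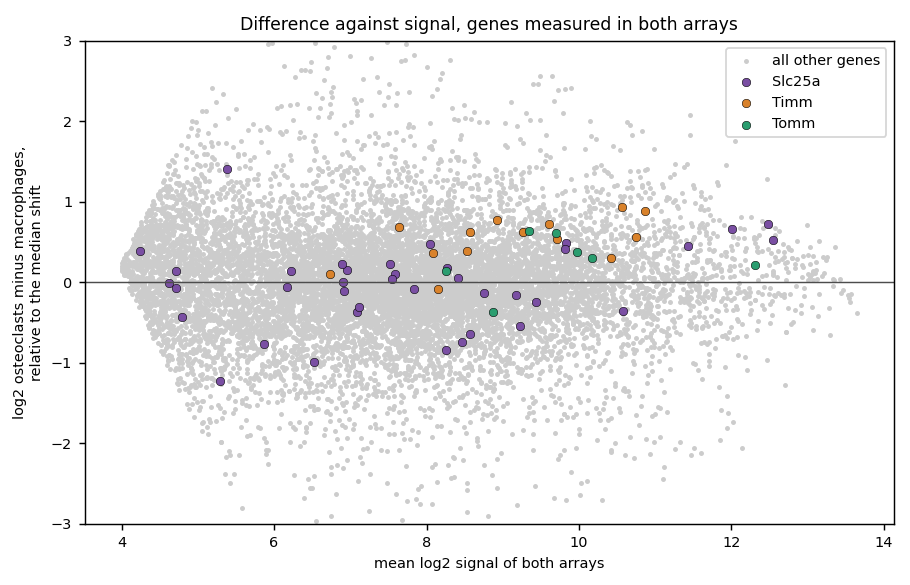
Log2 difference, osteoclasts minus macrophages relative to the median shift, against the mean log2 signal of both arrays for the genes measured in both; grey points are all genes, coloured points the Slc25a, Timm and Tomm genes, and genes beyond ±3 are outside the axis. The Timm genes (orange) lie above 0 except Timm17b, and the carriers (purple) lie on both sides.

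Since the arrays differed in Xist and Uty, genes on the X chromosome were looked at apart. Of the 59 measured genes 5 are X-linked: Slc25a5 (0.72), Timm8a1 (0.72), Slc25a53 (0.13), Slc25a14 (-0.06) and Timm17b (-0.09). Without them the median was 0.59 for 12 Timm genes and -0.01 for 35 carriers.

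The promoters of the genes above the shift are shown because nuclear genes of mitochondria are known to share binding motifs of a few factors, among them NRF1, ERR and ETS proteins. RefSeq promoter windows on GRCm38.p6 were matched for 54 of the 67 genes, and the 250 bases before the start were searched on both strands for 1 short core of each. The ETS core CCGGAAG was in 14 of 54 windows (25.9%) against 10.6% of 14368 genes, with 8 of 20 import genes (40%) and 6 of 34 carriers (17.6%). The NRF1 core GCATGCG was in 3 of 54 (5.56%) against 4.51% of genes, and the ERR core AAGGTCA in 2 of 54 (3.70%) against 3.46%. Different motifs shared no base in any of the 54 windows. A match of letters is not a binding site.

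By difference, the ETS core was in 5 of 14 windows of genes above the shift by more than the SD, in 6 of 27 within it and in 1 of 7 below it. This split was not tested and was not made for all genes. The genes below the shift by more than the SD were all carriers, so family and difference cannot be told apart here. The 6 windows with any of the motifs among genes above the SD are given here, 5′ to 3′ on the strand of the gene, with the motif letters of either strand in capitals. They lie at chr10:91123968-91124217, minus strand for Slc25a3, at chr2:84826771-84827020, plus strand for Timm10, at chr10:80900970-80901219, minus strand for Timm13, at chr14:32201892-32202141, minus strand for Timm23, at chr9:50603651-50603900, plus strand for Timm8b and at chr16:57121464-57121713, plus strand for Tomm70a.
Slc25a3: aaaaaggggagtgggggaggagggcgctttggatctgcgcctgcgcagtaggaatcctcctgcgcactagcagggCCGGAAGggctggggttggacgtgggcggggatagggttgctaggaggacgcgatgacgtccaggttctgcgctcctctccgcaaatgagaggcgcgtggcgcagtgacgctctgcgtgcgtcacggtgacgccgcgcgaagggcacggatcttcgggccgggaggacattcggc
Timm10: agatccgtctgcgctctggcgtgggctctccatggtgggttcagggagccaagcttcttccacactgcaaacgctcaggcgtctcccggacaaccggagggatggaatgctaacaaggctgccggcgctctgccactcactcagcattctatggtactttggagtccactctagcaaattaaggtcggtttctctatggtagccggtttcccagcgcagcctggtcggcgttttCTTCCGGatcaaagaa
Timm13: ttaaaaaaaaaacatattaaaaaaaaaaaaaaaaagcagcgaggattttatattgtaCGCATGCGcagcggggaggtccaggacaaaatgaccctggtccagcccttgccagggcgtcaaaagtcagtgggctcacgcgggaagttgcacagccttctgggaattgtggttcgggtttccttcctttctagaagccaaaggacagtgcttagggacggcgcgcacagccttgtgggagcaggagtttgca
Timm23: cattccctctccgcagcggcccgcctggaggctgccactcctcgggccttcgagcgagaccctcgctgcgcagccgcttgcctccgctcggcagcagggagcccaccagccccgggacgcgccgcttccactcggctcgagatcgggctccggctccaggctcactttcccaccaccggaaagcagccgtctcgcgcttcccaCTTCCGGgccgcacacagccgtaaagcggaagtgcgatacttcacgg
Timm8b: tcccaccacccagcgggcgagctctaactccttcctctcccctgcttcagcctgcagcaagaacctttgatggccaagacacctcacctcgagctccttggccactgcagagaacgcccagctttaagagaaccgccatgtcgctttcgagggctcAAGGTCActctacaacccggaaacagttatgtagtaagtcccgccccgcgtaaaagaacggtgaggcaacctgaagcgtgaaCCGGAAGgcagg
Tomm70a: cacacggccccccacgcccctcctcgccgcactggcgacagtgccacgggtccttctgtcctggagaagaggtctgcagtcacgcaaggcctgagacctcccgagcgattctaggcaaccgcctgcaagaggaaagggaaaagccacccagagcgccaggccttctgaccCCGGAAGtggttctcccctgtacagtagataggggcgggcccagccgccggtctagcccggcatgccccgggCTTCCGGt
Tomm70a has the ETS core on both strands, Timm8b has an ERR core and an ETS core, and in Timm13 the 2 matches of the NRF1 core overlap on opposite strands. The other 8 windows of genes above the shift by more than the SD, those of Slc25a5, Slc25a39, Slc25a42, Timm8a1, Timm17a, Timm22, Timm44 and Tomm40, held none of the 3 motifs.

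**Figure D5:**
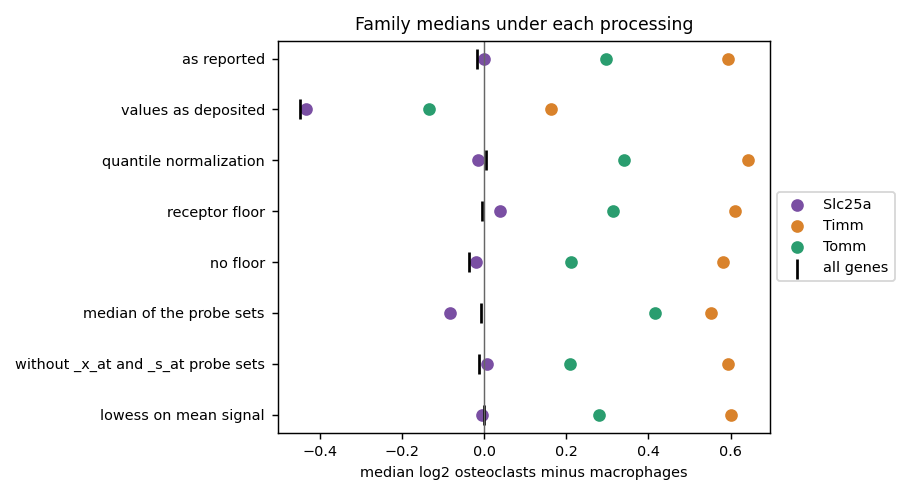
Median log2 difference, osteoclasts minus macrophages, of the measured Slc25a, Timm and Tomm genes under each processing, with the median of all genes as a black tick. The Timm median lies above that of all genes in each of the 8 processings shown, between 0.16 and 0.64, the Tomm median is below 0 as deposited only, and the Slc25a median stays within 0.1 of that of all genes.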

How the data were processed

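The processed table holds 1 intensity per probe set for each of 45101 probe sets in the osteoclast and the macrophage array. The deposited intensities are linear, and per the labels' protocols they come from biotinylated cRNA of 1 µg total RNA by the one-cycle Affymetrix protocol. The summarization, background correction and scaling by the authors were not given in the sources used here. Of the probe sets, 64 controls were left out, 34945 had a single gene symbol in the platform annotation, 932 had several and 9160 had none. Intensities were taken to log2 with no pseudocount, values below the floor were raised to it, and differences were taken relative to the median over 23708 probe sets (Python 3.11.15, numpy 2.4.6, pandas 2.3.3). The number of arrays limits the precision, so there is no test and no p-value. Background was read from 78 olfactory and vomeronasal receptor probe sets, whose 95th percentile was 25.8 in osteoclasts and 28.3 in macrophages. The calculation of differences was also run on simulated arrays. Their changes were larger than those of the members, were set in bright genes only, and had less noise than the SD between probe sets. That run therefore says nothing of small differences or dim genes. The genes named are all members, by role. Alternatives were the deposited scale, quantile normalization, a receptor floor or none, the median of a gene's probe sets or only those not ending in _x_at or _s_at and, added after seeing the data, a lowess fit on signal (statsmodels 0.14.6, fraction 0.4). Members and lists were chosen with earlier results of these data known. One gene can be read from several probe sets, and the annotation can be old.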

Additional observations from a re-analysis of the deposited data

How the results depend on the processing

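As deposited, the Tomm median was -0.14, no gene was 2-fold higher (0, against 1 as reported) and 6 were 2-fold lower (against 1). This setting differs only by the shift of -0.43, which moves every difference by the same amount. The median of all genes was then -0.45. The 2-fold calls were also sensitive to dim signals. With no floor 3 of 67 genes were higher and 4 lower, against 14.5% and 14.9% of all genes. With the receptor floor 0 were lower (6.55% of all genes), as Slc25a47 was then measured in 1 array only. With the median of a gene's probe sets 0 were higher (5.56% of all genes). Slc25a42 was then just under the threshold (0.999, its second probe set being in the range of background). Without _x_at and _s_at probe sets 1 gene was lower, but it was Slc25a29 (-1.13) in place of Slc25a47, which has no other probe set. The Slc25a median, near 0 as reported, was -0.083 with the median of the probe sets, 0.038 with the receptor floor and 0.0074 without _x_at and _s_at probe sets. The Timm median stayed above 0 in all 7 alternatives, between 0.16 and 0.64, and the Tomm median in the 6 other than the deposited scale, between 0.21 and 0.42. Of single genes, 3 moved by more than the SD between probe sets: Slc25a26 (0.85) and Tomm70a (0.11) without _x_at and _s_at probe sets, and Timm22 (-0.022) with the median of its probe sets, of which 1 is in the range of background. No paired analysis was possible because each group has 1 array, and no replicate could be left out. Signals near background limit what can be said of the dim carriers.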
